A study of Mus musculus with 16 samples.

Results

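The eosinophil-associated ribonucleases Ear1, Ear2, Ear10, and Rnase2a are small secreted enzymes that cut RNA. Their expression was followed in whole kidneys of mice lacking the inhibitory Fc receptor Fcgr2b, the innate immune adaptor STING, or both. The members were the probes whose transcript is one of these 4 genes, which gave 4 probes of 56605 on the array and 4 genes of the 22911 that could be named. The genes were picked because their signal rose in the kidneys without Fcgr2b, so every difference between mice with and without Fcgr2b is given for them as a description, with no test. Other gene lists shown beside them were also written with earlier results of these arrays known.

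One kidney RNA sample per mouse was hybridized to a one-color array, with 4 mice of each genotype, all 6 months old. The wild-type mice (labelled WT) and the Sting gt/gt mice (labelled Sting-ko) had the strain C57BL/6. The Fcgr2b-/- mice (labelled Fcgr2b-ko and called lupus mice) and the Fcgr2b-/-.Sting gt/gt mice (labelled Fcgr2b-ko, Sting-ko, and called double-deficient here) had the strain 129/C57BL/6. Every Fcgr2b-deficient mouse therefore carried the mixed strain and every other mouse did not, so strain and Fcgr2b genotype cannot be told apart. The heatmaps of the study head the lupus columns as Fcgr2b-/-.Sting wt/gt, whereas the labels name the Fcgr2b deletion alone. Both alleles were carried in the germline, so every cell of the animal was affected, and the gt allele (Goldenticket) is a missense mutation of the gene for STING. Wild-type mice were purchased, and the crosses were kept with littermate controls. The labels do not give the sex.

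In mice, the Ear genes form a rodent-expanded branch of the ribonuclease A superfamily, with many near-identical copies next to each other on one chromosome. Their products were first purified from the granules of eosinophils, where they act against parasites and viruses and attract dendritic cells. Ear transcripts are also known from macrophages and from the patrolling, nonclassical monocytes that survey the lining of blood vessels, so an Ear transcript in a kidney does not name a cell by itself.

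The sequences at the start of each gene are shown first, as a description of how alike the copies are there. Each is the 300 bases around the start of the RefSeq gene (250 before it and 50 after it, build GRCm38.p6), written 5′ to 3′ on the strand of the gene. Most of these bases lie before the gene, so their likeness does not show whether a probe takes up RNA of another copy. Capitals mark matches to 5 motifs searched on both strands.
Ear1 (chr14:43819590-43819889, minus strand): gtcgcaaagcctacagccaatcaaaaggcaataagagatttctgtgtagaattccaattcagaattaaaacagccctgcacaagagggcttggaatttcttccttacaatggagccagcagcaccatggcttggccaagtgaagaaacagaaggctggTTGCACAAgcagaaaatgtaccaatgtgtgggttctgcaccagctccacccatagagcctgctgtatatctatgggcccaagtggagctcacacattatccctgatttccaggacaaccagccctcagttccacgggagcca
Ear2 (chr14:44102404-44102703, plus strand): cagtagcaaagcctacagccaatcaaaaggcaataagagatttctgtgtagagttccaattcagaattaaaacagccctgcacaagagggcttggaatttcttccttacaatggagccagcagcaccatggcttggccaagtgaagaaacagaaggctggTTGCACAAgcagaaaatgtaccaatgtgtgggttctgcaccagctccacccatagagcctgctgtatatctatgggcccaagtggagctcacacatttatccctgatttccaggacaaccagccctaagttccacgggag
Ear10 (chr14:43923547-43923846, minus strand): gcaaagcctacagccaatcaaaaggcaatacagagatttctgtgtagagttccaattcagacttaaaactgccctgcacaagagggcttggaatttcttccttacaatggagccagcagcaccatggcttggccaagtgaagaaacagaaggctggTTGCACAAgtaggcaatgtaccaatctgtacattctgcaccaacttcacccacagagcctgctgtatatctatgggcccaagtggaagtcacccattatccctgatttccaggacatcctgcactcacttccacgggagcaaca
Rnase2a (chr14:51256063-51256362, minus strand): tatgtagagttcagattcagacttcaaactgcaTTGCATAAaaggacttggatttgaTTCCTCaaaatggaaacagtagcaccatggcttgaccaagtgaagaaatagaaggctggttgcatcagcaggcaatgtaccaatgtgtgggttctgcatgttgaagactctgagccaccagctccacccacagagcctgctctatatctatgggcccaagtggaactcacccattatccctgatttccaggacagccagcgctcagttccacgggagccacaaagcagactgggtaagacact

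The windows of Ear1 and Ear2 were identical at 294 of 298 aligned columns (98.7%), with an unbroken identical run of 202 bases. Ear10 matched Ear1 at 92.6% and Ear2 at 92.6% of aligned columns, and Rnase2a matched the other three at 81.1 to 81.6%. This likeness is not particular to the members. Of their relatives, Rnase2b matched Ear1 at 90.5% and Ear6 matched Ear1 at 86.6%, both above Rnase2a. The genes also lie in one neighborhood. In the RefSeq gene order, Ear10 stands 7 genes after Ear1 and Ear2 stands 19 after it, with 6 Ear pseudogenes among those 19, while Rnase2a stands 226 genes away on the same chromosome.

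The C/EBP motif (TTGCNNAA, the site of the CCAAT/enhancer-binding proteins that drive myeloid and granulocyte genes) matched once in each of the 4 windows, where 10.8% of the 32851 promoters of the same length hold it. In Ear1, Ear2, and Ear10 the match was TTGCACAA, 92, 90, and 94 bases before the start site. In Rnase2a it was TTGCATAA and lay farther out, at position −217 from the start. The relative Rnase2b, whose probe was above background on no array, held TTGCACAA too, at position −118. The relatives Ear6 and Ear14 held no C/EBP match. The PU.1 motif (GAGGAA, the site of a myeloid factor) matched only in Rnase2a, against 28.3% of all promoters. In the 4 members, no match was found for the GATA letters (A or T, then GATA, then A or G, held by 29.8% of promoters), for STAT (TTCNNNGAA, 8.30%), or for interferon regulatory factors (3.44%). The relative Ear14 held 2 GATA matches and 1 STAT match. Copies share their letters by descent, so these are not separate matches.

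The array carried 1 probe per gene: A_52_P412585 for Ear1 (NM_007894), A_55_P1952618 for Ear2 (NM_007895), A_55_P2157008 for Ear10 (NM_053112), and A_51_P455338 for Rnase2a (NM_053113). The letters of these probes were not used here, so whether a probe takes up RNA of a neighboring copy was not tested, and each gene's value may include its relatives. Signals below are log2 of the background-subtracted intensity minus the array's 75th percentile, so that 0 is the 75th percentile of the array and a difference of 1 is 2-fold. A probe counted as detected where the scanning software marked it well above background.

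Before the ribonucleases, the arrays were checked against their labels. The 75th percentile of intensity ran from 387.6 to 951.1, and 28443 to 35566 probes were well above background per array. All 6 proximal tubule genes and all 5 podocyte genes on the lists were detected on all 16 arrays. Fcgr2b itself was at 1.16 ± 0.44 (SD, n = 4) in wild-type, −0.28 ± 0.34 in Fcgr2b-/-, −0.58 ± 0.41 in double-deficient, and 0.26 ± 0.70 in Sting gt/gt mice, and its probe remained well above background on every array. All 8 Fcgr2b-deficient arrays lay below all 4 wild-type arrays, whereas Sting gt/gt replicate 4, at −0.66, lay among the deficient ones. Sting gt/gt replicate 3, at 0.17, also lay just below the highest deficient array (Fcgr2b-/- replicate 1, at 0.21). The double-deficient minus Sting gt/gt differences, list medians, and likeness are therefore also given without replicate 4, the lowest of that group, with replicate 3 kept. The missense gt allele need not lower the transcript, so the Sting1 probe checks nothing. Xist was detected on 2 wild-type, 3 Fcgr2b-/-, 2 double-deficient, and 3 Sting gt/gt arrays, and the Y-linked gene Ddx3y on the remaining 6, so both sexes were present in each group.

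**Figure D1:**
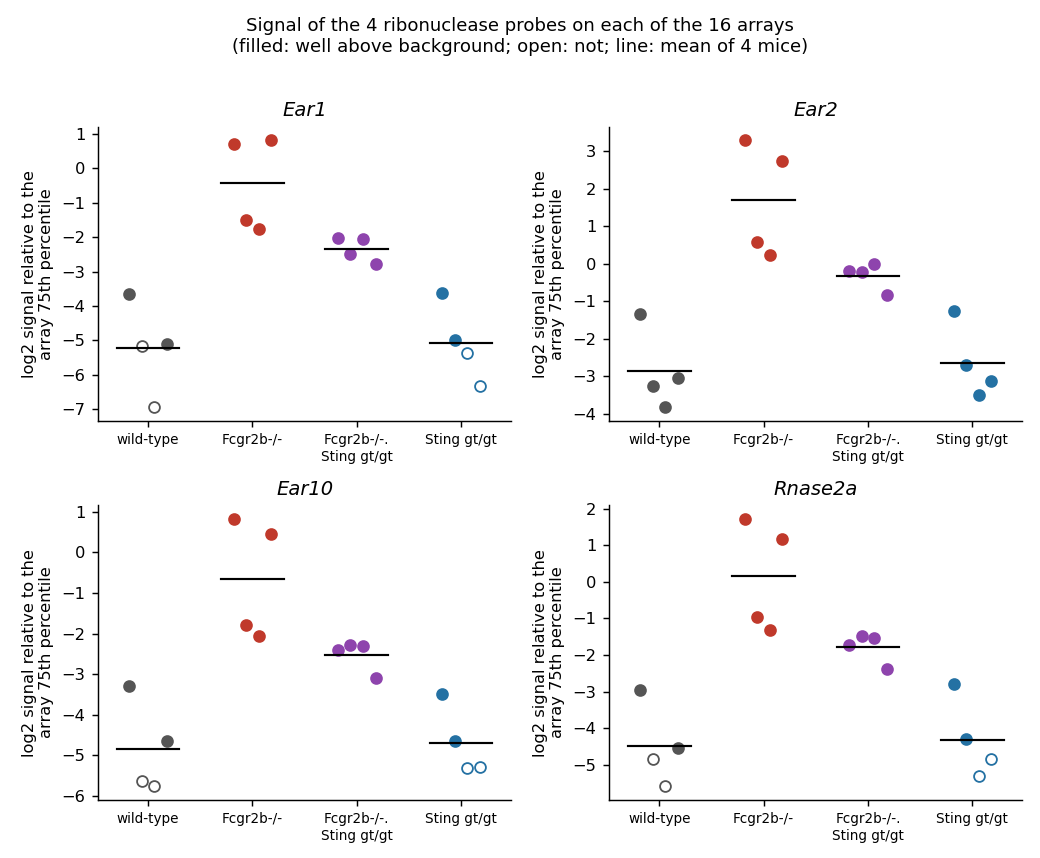
Log2 signal relative to the array's 75th percentile (vertical axis) for each of the 4 ribonuclease probes on the 16 arrays, grouped by genotype. Filled points were well above background, open points were not, and the line is the mean of 4 mice. The Fcgr2b-/- mice are the highest group in each panel, the double-deficient mice lie between them and the other groups, and wild-type and Sting gt/gt mice overlap.

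All 4 ribonucleases followed the same order of genotypes. They were highest in the Fcgr2b-/- kidneys, intermediate in the double-deficient kidneys, and lowest in the wild-type and Sting gt/gt kidneys, which did not separate from each other. For each gene, no Fcgr2b-/- array overlapped a double-deficient one and no double-deficient array overlapped a wild-type or Sting gt/gt one. Over all tested probes, double-deficient arrays lay below all Fcgr2b-/- arrays at 0.312%. They lay above all wild-type arrays at 0.312% and above all Sting gt/gt arrays at 1.41%. The share of probes with the whole order at once was not computed, and the genes were picked for part of it. In whole-kidney RNA, a change in the number of cells of a type and a change in RNA per cell cannot be told apart. The study states that its kidneys were not perfused, so RNA from blood left in them cannot be told from RNA of the tissue.

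Ear2, whose product was purified from mouse eosinophil granules and whose transcript is also known from nonclassical monocytes and alveolar macrophages, was the one member detected on all 16 arrays. Its signal was −1.33, −3.27, −3.83, and −3.05 in wild-type replicates 1 to 4, and −1.27, −2.69, −3.50, and −3.13 in Sting gt/gt replicates 1 to 4. In Fcgr2b-/- replicates 1 to 4 it was 3.30, 0.58, 0.22, and 2.73, and in double-deficient replicates 1 to 4 it was −0.19, −0.23, −0.02, and −0.84. Replicates 1 and 4 of the Fcgr2b-/- mice stood well above replicates 2 and 3. The double-deficient mice were tightly grouped (SD 0.36), the Fcgr2b-/- mice were spread (SD 1.53), and the first replicate was the highest in both low groups.

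Ear1, which encodes a close copy of the Ear2 protein, was read at −3.66, −5.16, −6.95, and −5.11 in the wild-type mice and at −3.63, −5.00, −5.36, and −6.34 in the Sting gt/gt mice. It was at 0.70, −1.49, −1.75, and 0.83 in the Fcgr2b-/- mice and at −2.01, −2.49, −2.05, and −2.78 in the double-deficient mice. The same pair of Fcgr2b-/- mice was high. In the low groups the probe was well above background on only 2 of 4 arrays each (replicates 1 and 4 of the wild-type mice, 1 and 2 of the Sting gt/gt mice), with processed intensities from 3.98 to 63.1, so the lowest of these values carry little signal.

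Ear10, another member of the cluster, was at −3.30, −5.63, −5.76, and −4.64 in the wild-type and at −3.50, −4.64, −5.32, and −5.28 in the Sting gt/gt mice. It was at 0.82, −1.80, −2.06, and 0.45 in the Fcgr2b-/- mice, whereas double-deficient mice were at −2.40, −2.29, −2.31, and −3.09. Replicate 4 was the lowest double-deficient mouse for Ear10, as it was for the other members. Detection followed Ear1, with the same 2 arrays of 4 in each low group.

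Rnase2a, also known as Ear11 and named after the human eosinophil-derived neurotoxin gene RNASE2, was at −2.95, −4.83, −5.59, and −4.53 in the wild-type and at −2.80, −4.30, −5.30, and −4.84 in the Sting gt/gt mice. It was at 1.72, −0.95, −1.33, and 1.16 in the Fcgr2b-/- mice and at −1.73, −1.47, −1.54, and −2.38 in the double-deficient mice. Its detection was that of Ear1 and Ear10, on all 8 Fcgr2b-deficient arrays and on 2 of 4 in each low group.

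**Figure D2:**
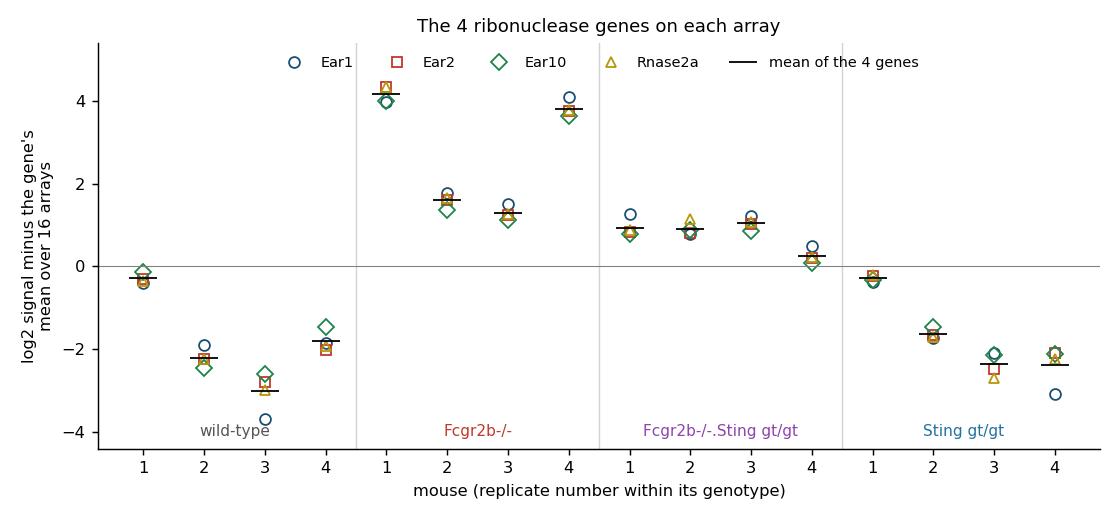
Log2 signal of each ribonuclease gene minus that gene's own mean over the 16 arrays (vertical axis), for each mouse by genotype and replicate number; bars are the mean of the 4 genes. The 4 symbols nearly coincide on most arrays, with Fcgr2b-/- replicates 1 and 4 at 4.15 and 3.81 and replicates 2 and 3 at 1.60 and 1.29, and Ear1 lies apart on replicate 3 of the wild-type and replicate 4 of the Sting gt/gt mice.

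The members moved together from mouse to mouse as well as between genotypes. Over the 16 arrays the correlation between any pair of them was 0.982 to 0.999, and after each genotype's mean was removed it was still 0.919 to 0.995, highest for Ear2 with Rnase2a and lowest for Ear1 with Ear10. The log2 ratio of Ear2 to Rnase2a had an SD of 0.13 over the arrays, against 0.50 for Ear1 to Ear10. These are descriptions over arrays that share genotypes, dye, and possibly cross-hybridizing copies. Within a genotype the members were more variable than most of the array. Their SD between mice of one genotype was 1.05 to 1.13, where the median of all tested probes was 0.55 and 87.9 to 91.0% of probes varied less.

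The first comparison asked for what the choice of the genes had used. Between Fcgr2b-/- and wild-type kidneys the mean difference was 4.58 for Ear2 (23.9-fold), which was detected in every mouse. It was 4.79 for Ear1, 4.18 for Ear10, and 4.62 for Rnase2a, where no fold is given because 2 of the 4 wild-type arrays were not above background. For each gene every Fcgr2b-/- mouse was above every wild-type mouse. At an adjusted p under 0.05 and at least 2-fold, 16 of 35629 tested probes were called in this comparison (0.0449%), 15 of them higher (0.0421%), and the groups did not overlap with the first higher at 0.626% of probes. The 4 members are among the 15, from which nothing is read, since they were chosen for this difference. The differences were smaller where background was estimated with normexp, at 2.67 for Ear1, 2.50 for Ear10, and 2.94 for Rnase2a, a method that adds an offset of 50 to every spot and so compresses differences of dim probes. Among the arrays with Ddx3y, 1 Fcgr2b-/- mouse stood 2.41 to 2.66 above the mean of 2 wild-type mice, and among those with Xist, 3 mice stood 5.02 to 6.04 above 2.

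Ear6 was the relative just outside the choice. One of its 2 probes, A_51_P379293, was well above background only on Fcgr2b-/- replicates 1 and 4, at −3.24 and −3.11, the same pair of mice in which the members were highest. On the other 14 arrays that probe was at −5.21 or below. Against the wild-type arrays, where it was not above background, its mean in Fcgr2b-/- mice was at least 1.81-fold higher. The other Ear6 probe, A_55_P2004375, was detected on all 16 arrays and was flat, at −3.97 ± 0.17 (SD, n = 4) in wild-type and −3.68 ± 0.40 in Fcgr2b-/- mice, so the probes of this gene disagreed. Rnase2b was detected on no array, and Ear14 had no probe.

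The next comparison set the double-deficient mice against the Sting gt/gt mice, which asks what loss of Fcgr2b did where STING was absent. Double-deficient mice also lack Fcgr2b and the choice of the genes looked across all 16 arrays, so these values are not independent of the choice. All 4 members were higher in the double-deficient kidneys, and for each gene all 16 pairs of one mouse from each group ran that way. Ear2 differed by 2.33 (SE 0.69, 5.03-fold). Ear1 differed by 2.75 (SE 0.73), Ear10 by 2.16 (SE 0.68), and Rnase2a by 2.53 (SE 0.71), with 2 of the 4 Sting gt/gt arrays not above background. Groups that did not overlap with the first higher were found at 1.41% of the 35629 probes, and at 0.213% with at least 2-fold as well. The 4 probes were read in the same mice and may share RNA, so these are not 4 independent values.

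Limma called no probe in this comparison (0.0% of probes called), and 1.66% of probes were higher at an unadjusted p under 0.05. In either direction 1092 probes had an unadjusted p under 0.05 and the Mann-Whitney test that the study's methods name, unadjusted and with at least 2-fold, took in 169. The differences ran the same way on both slides, at 2.31, 1.80, 1.67, and 1.82 for Ear1, Ear2, Ear10, and Rnase2a on slide 1 (1 mouse against 2) and at 3.41, 2.95, 2.74, and 3.28 on slide 2 (3 mice against 2). Without Sting gt/gt replicate 4 they were 2.33, 2.17, 1.97, and 2.35. With normexp they were 1.01, 1.64, 0.87, and 1.16, and the groups still did not overlap. Only Ear2 was detected on all 16 arrays, so it alone has a measured level in each low mouse. Among the arrays with Xist (2 mice against 3) they were 2.12 to 2.96, and within those with Ddx3y (2 against 1) 2.64 to 3.38.

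**Figure D3:**
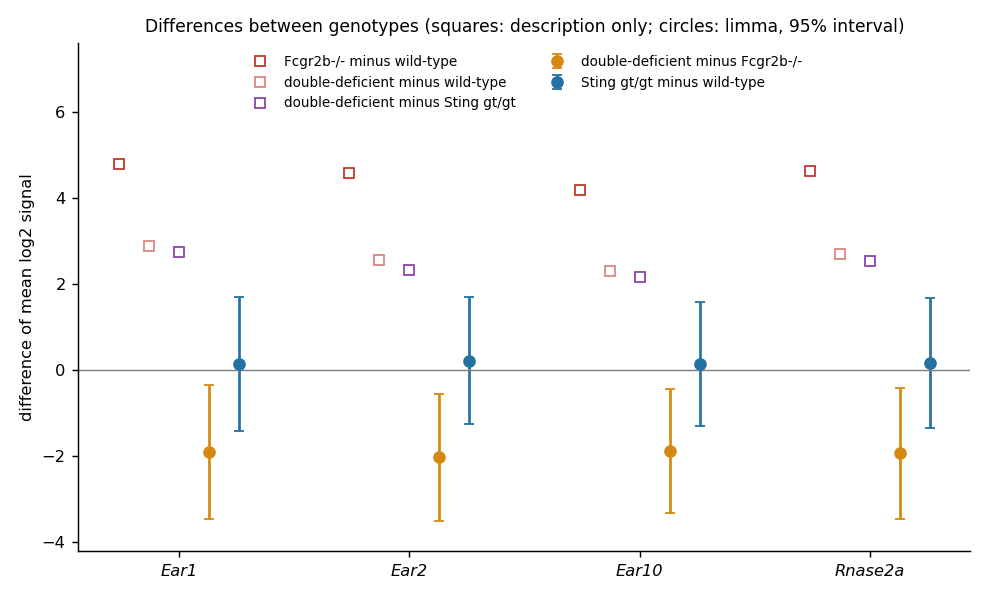
Difference of mean log2 signal (vertical axis) for each ribonuclease between pairs of genotypes, 4 mice each. Open squares are differences between mice with and without Fcgr2b, the quantity the genes were chosen for, shown as a description. Circles are limma estimates with 95% intervals, not adjusted for the number of probes. The arrays behind the circles also entered the choice of the genes, so these estimates are not independent of it. The double-deficient minus Sting gt/gt differences lie between 2.16 and 2.75, the double-deficient minus Fcgr2b-/- differences between −2.03 and −1.87, and the Sting gt/gt minus wild-type differences near 0.

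The third comparison set the double-deficient against the Fcgr2b-/- mice, which asks what loss of STING did where Fcgr2b was absent. The 4 genes were lower in the double-deficient kidneys, and none of the 16 pairs of mice ran the other way for any of them. The differences were −1.90 for Ear1, −2.03 for Ear2, −1.87 for Ear10, and −1.93 for Rnase2a, with SE 0.68 to 0.73. Groups that did not overlap with the first lower were found at 0.312% of probes, and at 0.0842% with at least 2-fold. Limma's p after adjustment over all probes was 1.0 for each gene, with 0.0% of probes called, and 1.15% of probes were lower at an unadjusted p under 0.05. The Fcgr2b-/- arrays also entered the choice of the genes, so this difference is not independent of that choice.

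How far the double-deficient mice lay below the Fcgr2b-/- mice depended on which mice were set side by side. The lowest Fcgr2b-/- mouse exceeded the highest double-deficient mouse by 0.26 for Ear1, 0.24 for Ear2, 0.23 for Ear10, and 0.14 for Rnase2a, whereas the highest Fcgr2b-/- mouse exceeded the lowest double-deficient mouse by 3.61, 4.13, 3.90, and 4.10. Within slide 2 (3 double-deficient mice against Fcgr2b-/- replicate 3) the difference was −0.69, −0.58, −0.50, and −0.47 for Ear1, Ear2, Ear10, and Rnase2a, and within slide 1 (double-deficient replicate 1 against the other 3) it was −2.02, −2.39, −2.22, and −2.38. Among the arrays with Ddx3y (2 mice against 1) it was −0.88 to −0.59, and among those with Xist (2 against 3) it was −2.31 to −2.04. The Fcgr2b-/- mouse with Ddx3y was again replicate 3, and the double-deficient mice with Ddx3y were on slide 2 too. The split by these genes therefore largely repeats the split by slide. With the slide as a block over all arrays it was −1.22, −1.44, −1.37, and −1.33.

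The last comparison set the Sting gt/gt against the wild-type mice, and no difference was detected. Sting gt/gt minus wild-type was 0.14 for Ear1, 0.22 for Ear2, 0.15 for Ear10, and 0.16 for Rnase2a, with 95% intervals from −1.42 to 1.69 for Ear1, −1.25 to 1.69 for Ear2, −1.30 to 1.59 for Ear10, and −1.35 to 1.68 for Rnase2a, so shifts of that size either way are inside them. Limma's adjusted p was 0.921 to 0.954, with 0.0% of probes called. The sign turned under several settings, among them scaling by the array median, at −0.10, −0.02, −0.09, and −0.07. Among the arrays with Xist (3 mice against 2) the difference was 0.73 to 1.08, and among those with Ddx3y (1 against 2) it was −1.41 to −0.86, so the direction differed between these small sets. The wild-type arrays also entered the choice of the genes, so these values are not independent of it. Against the same wild-type arrays, the double-deficient mice were higher by 2.89, 2.55, 2.31, and 2.69, with no overlap for any of the 4 genes, where 0.312% of probes had groups that did not overlap with the first higher; this is a description, since it rests on those arrays too.

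Other genes that define eosinophils were read next, because the name of the Ear family points to that cell. Their transcripts were at or near background. Epx (eosinophil peroxidase) and Ccr3 (the eotaxin receptor) were not well above background on any of the 16 arrays. Prg2 (major basic protein) was detected on replicate 1 of the wild-type mice and replicate 2 of the Sting gt/gt mice, and on none of the 8 Fcgr2b-deficient arrays. Siglecf, a surface lectin of eosinophils and alveolar macrophages, was detected on Fcgr2b-/- replicates 1 and 4, at −4.80 and −5.14, which are the mice with the highest ribonuclease signal, and on no other array.

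Of the 9 genes on the eosinophil list, 2 passed the filter for testing. Il5ra (the interleukin-5 receptor subunit) was detected on all 16 arrays and differed by −0.88 between Fcgr2b-/- and wild-type mice (limma adjusted p = 1.0) and by 0.33 between double-deficient and Sting gt/gt mice. Cebpe, the other tested gene, was detected on 10 arrays. It ran the opposite way to Il5ra in both comparisons, at 0.57 and −0.19, and was not called. The summed level of all 9 genes, in units of the array's 75th percentile, was 0.241 to 1.28 in wild-type, 0.205 to 0.701 in Fcgr2b-/-, 0.191 to 1.39 in double-deficient, and 0.265 to 1.5 in Sting gt/gt mice. Il5ra alone made up 50 to 91.7% of it. The other 8 genes summed to 0.0612 to 0.154 in wild-type, 0.0974 to 0.18 in Fcgr2b-/-, 0.0735 to 0.189 in double-deficient, and 0.0768 to 0.133 in Sting gt/gt mice, ranges that also overlapped. Of the signals that call in or sustain eosinophils, Il5, Il3, and Csf2 were detected on no array, and Ccl11 (eotaxin) was detected on 2 or 3 of 4 arrays per group and differed by 0.91 between Fcgr2b-/- and wild-type mice and by −0.08 between double-deficient and Sting gt/gt mice, with limma adjusted p of 1.0 and 0.991. Of the 11 listed signals 6 were tested, and all 6 were higher in Fcgr2b-/- than in wild-type mice (median 1.09, none called), where 44.8% of all tested genes were higher. Named after their values were seen, Ccl7 (a monocyte and eosinophil chemokine) differed by 3.10 there (limma adjusted p = 1.0) and Ccl24 (eotaxin-2) by 1.32 (adjusted p = 1.0). Between double-deficient and Sting gt/gt mice 2 of the 6 were higher, with a median of −0.05.

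**Figure D4:**
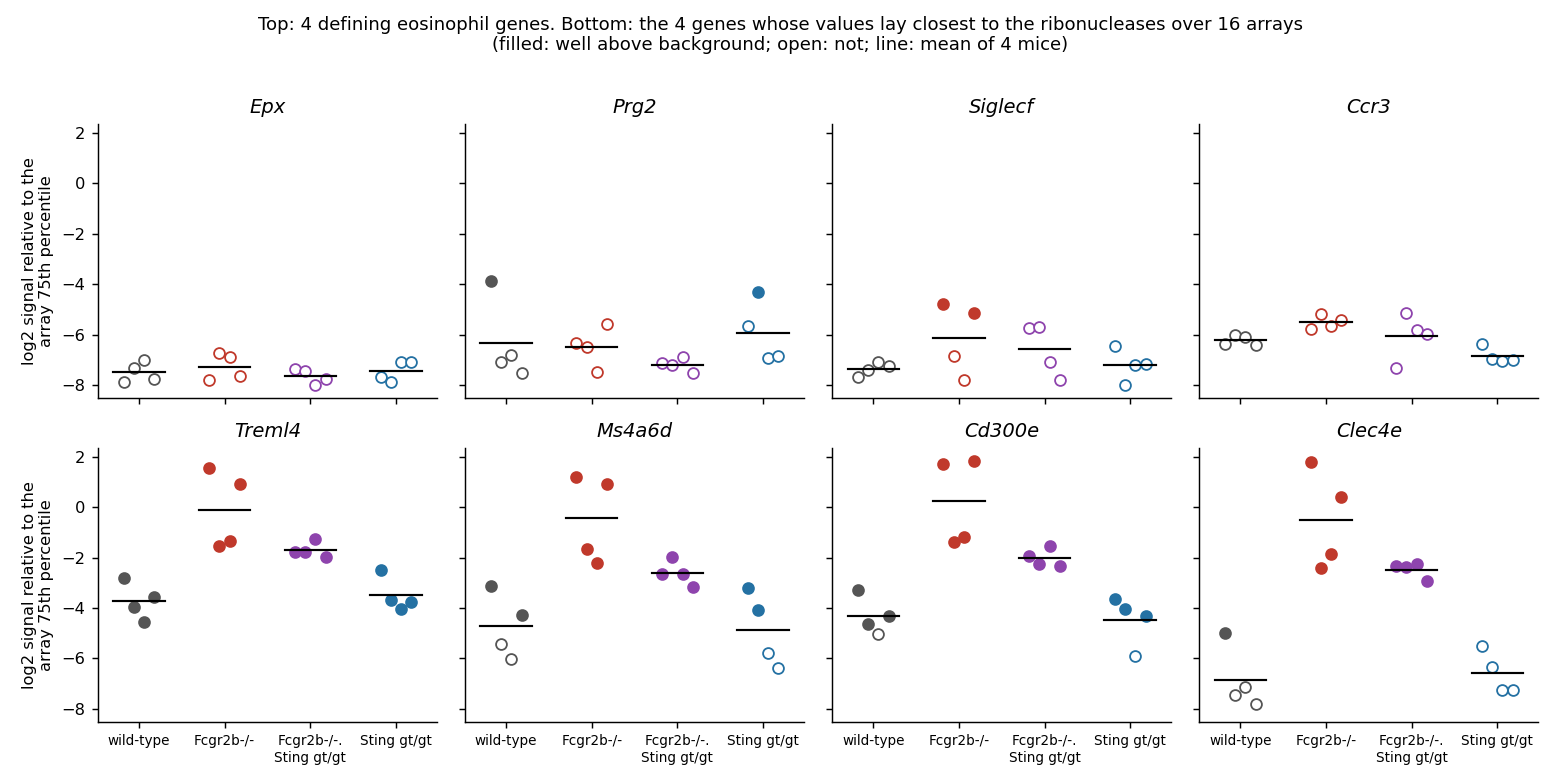
Log2 signal relative to the array's 75th percentile (vertical axis, shared by all panels) on the 16 arrays by genotype, for the eosinophil genes Epx, Prg2, Siglecf, and Ccr3 (top) and for Treml4, Ms4a6d, Cd300e, and Clec4e (bottom). Filled points were well above background, open points were not, and lines are means of 4 mice. The eosinophil genes sit at or near background, whereas the lower genes repeat the order of genotypes of the ribonucleases.

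Ribonuclease A genes outside the Ear branch were read beside them. Of 14 listed genes, among them the ribonuclease inhibitor Rnh1, 8 were tested, and none was called or had groups that did not overlap between double-deficient and Sting gt/gt mice or between Fcgr2b-/- and wild-type mice. Their median difference was 0.33 in the former (0.05 without Sting gt/gt replicate 4) and −0.20 in the latter, against 0.02 and −0.04 over all 16401 tested genes. Rnase4 (a secreted ribonuclease made with angiogenin from one locus) differed by −0.34 between Fcgr2b-/- and wild-type mice, Rnase6 (an antimicrobial ribonuclease of monocytes) by 0.66, and Ang (angiogenin) by −0.16. Rnase1 was not detected.

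The genes whose values lay closest to the ribonucleases were then listed, by the correlation over 16 arrays with the mean of the 4 members, taking each named gene outside the Ear family by its brightest tested probe. The 10 highest were Treml4 (0.988), Ms4a6d (0.980), Cd300e (0.976), Clec4e (0.976), Fpr1 (0.968), S1pr5 (0.967), Adgre4 (0.961), Clec4n (0.958), Clec4a3 (0.953), and Ccl3 (0.952), where the 99th percentile of all genes was 0.789. Without Sting gt/gt replicate 4 the same 10 genes remained the 10 highest, at 0.949 to 0.989. The arrays share genotype groups and slides, and genes that rise in one genotype correlate through that. Most of these genes are known from monocytes and macrophages. Treml4 and Cd300e are receptors of nonclassical monocytes, Clec4e (Mincle) and Clec4n (Dectin-2) are lectins that sense fungal and mycobacterial glycolipids or glycans, and Fpr1 is the receptor for formylated bacterial peptides.

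Treml4 was at −2.80, −3.95, −4.54, and −3.56 in wild-type replicates 1 to 4, and at 1.57, −1.53, −1.32, and 0.94 in Fcgr2b-/- replicates. Double-deficient replicates were at −1.79, −1.79, −1.27, and −1.96, and Sting gt/gt replicates at −2.48, −3.68, −4.03, and −3.74. The same Fcgr2b-/- replicates 1 and 4 were high, and the first replicates of the low groups were again their highest. When genotype means were removed from both sides, Treml4 (0.950) and Ms4a6d (0.958) stayed among the 10 highest. The other 8 were Batf (0.961), Ifi27l2a (0.958), Fcgr1 (0.950), Il1b (0.949), Parp9 (0.946), Cfap45 (0.944), Gzmb (0.944), and Plek (0.943), where the 99th percentile of all genes was 0.900, so mice with more ribonuclease signal than others of their genotype also had more of these transcripts.

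Of the 10 genes closest over all arrays, Clec4e and Fpr1 were not well above background on any Sting gt/gt array and were so on all 4 double-deficient arrays. Against those arrays the double-deficient mean was at least 6.96-fold higher for Clec4e and at least 4.63-fold higher for Fpr1, and without Sting gt/gt replicate 4 at least 7.58-fold and 5.02-fold. The double-deficient minus Sting gt/gt difference of the other 8 ran from 1.41 (Ccl3) to 2.46 (Cd300e), with S1pr5 and Adgre4 well above background on only 1 Sting gt/gt array each, and without that mouse from 1.02 (Clec4a3) to 2.51 (Cd300e). These genes were picked for likeness to the members, so their differences are given here with no test.

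**Figure D5:**
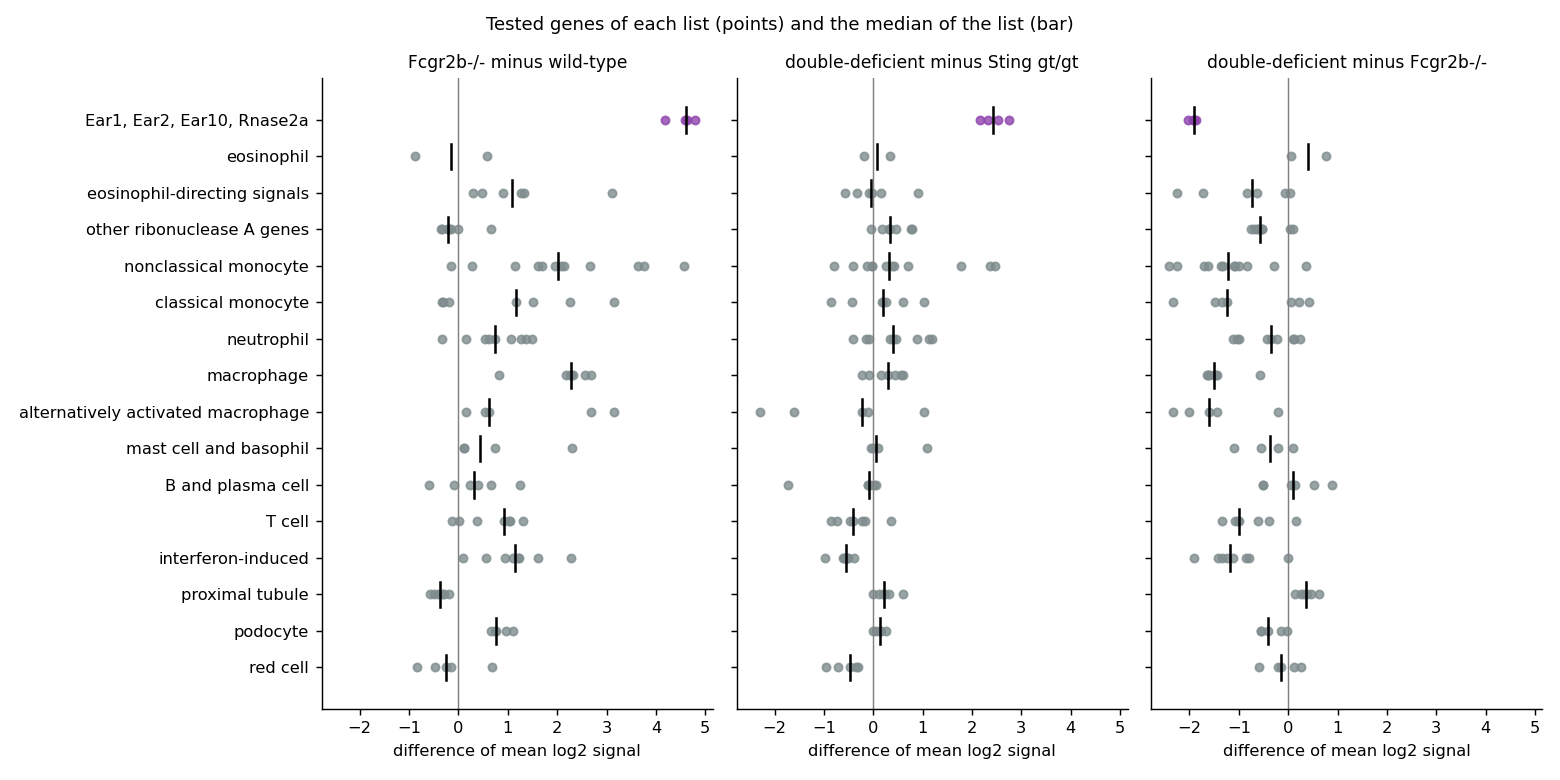
Difference of mean log2 signal (horizontal axis, shared by the panels) for the tested genes of each list, 1 point per gene, with the median as a bar, in 3 comparisons of 4 mice against 4. The members (top row) lie at 4.18 to 4.79, at 2.16 to 2.75, and at −2.03 to −1.87. Of the nonclassical monocyte list, only Cd300e (4.57) reaches the first range. Cd300e (2.46) and Adgre4 (2.37) lie within the second, and Cd300e (−2.26) and Fcgr4 (−2.41) lie beyond the third. The median of that list is 2.02, 0.32, and −1.22.

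Cell types that could supply Ear transcripts were read from lists of their genes, as a description beside the members. Genes of nonclassical monocytes moved with the members only in part. Of 12 tested genes, 2 had groups that did not overlap with the first higher between double-deficient and Sting gt/gt mice, against 1.38% of all tested genes. These were Treml4 (1.78) and Cd300e (2.46). Without Sting gt/gt replicate 4 the count was 4 of 12. The share over all genes was not computed for that smaller set, and fewer arrays overlap less readily. Of the other defining genes, Nr4a1, the factor this monocyte depends on, differed by 0.26 and Ace, which kidney tubules also express, by −0.02. The median of the list was 0.32 (0.35 without Sting gt/gt replicate 4) against 0.02 over all genes. Between Fcgr2b-/- and wild-type mice 11 of the 12 were higher, the median was 2.02, and 1 was called, Cd300e (4.57, limma adjusted p = 0.0352). Cd300e is among the genes picked for likeness to the members, so nothing is read from this call. That call was lost with a random block for the leading number of the mouse label (adjusted p = 0.209 with the estimated correlation), with only the compared groups fitted (0.669), and in the authors' table (0.098). It was also lost without Fcgr2b-/- replicate 1 (0.122) or 4 (0.164), or wild-type replicate 2 (0.183), 3 (0.193), or 4 (0.136). Leaving out Sting gt/gt replicate 2 (0.0643) or 4 (0.0584), or any 1 double-deficient mouse (0.0593 to 0.0713), lost it too. With any other mouse left out it stayed (0.0188 to 0.04). The summed level was 7.43 to 14.8 in wild-type, 11.5 to 47.3 in Fcgr2b-/-, 9.14 to 17.5 in double-deficient, and 8.47 to 26.2 in Sting gt/gt mice. Ceacam1, an adhesion molecule that epithelial cells also express, made up 17.9 to 72.2% of it, and the other 11 genes summed to 4.19 to 6.91, 7.33 to 37.7, 6.29 to 7.95, and 4.83 to 7.53 in the same order. All 4 defining genes were detected in every group, and the part of these cells in the ribonuclease signal was not tested.

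Macrophage genes differed most where Fcgr2b-/- mice were compared. Of the 7 tested, all 7 were higher in Fcgr2b-/- than in wild-type mice (median 2.27, none called, 7 at an unadjusted p under 0.05, as were 2.62% of all probes in this direction), and all 7 were lower in double-deficient than in Fcgr2b-/- mice (median −1.50). Between double-deficient and Sting gt/gt mice, where the ribonucleases differed by 2.16 to 2.75, the macrophage median was 0.29 (0.12 without Sting gt/gt replicate 4) and no gene had groups that did not overlap. C1qa, a complement subunit made by tissue macrophages, differed by 0.43 there, Adgre1 (F4/80) by 0.56, and Csf1r by −0.09. The summed macrophage level was 18.5 to 24.1 in wild-type, 28.6 to 95.3 in Fcgr2b-/-, 25.5 to 26.9 in double-deficient, and 21.1 to 31.0 in Sting gt/gt mice, with all 3 defining genes detected on all arrays, and its part in the result was not tested.

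The remaining lists gave no call in the double-deficient against Sting gt/gt comparison, where no probe of the array was called. The classical monocyte list had a median of 0.19, with Ly6c2 at 0.26 and Ccr2 at −0.43. The neutrophil list had a median of 0.40, with S100a8 at 1.13 and S100a9 at 0.89, and 1 of its 9 tested genes had groups that did not overlap with the first higher, as had 1.38% of all tested genes. That gene was Mmp8, named after its values were seen, and it was well above background on 1 double-deficient and no Sting gt/gt array. Alternatively activated macrophage genes had a median of −0.23, with Retnla at −2.30 (detected on 1 double-deficient and 4 Sting gt/gt arrays) and Chil3 at 1.03 (on 4 and 3). Mast cell and basophil genes had a median of 0.05, with Ms4a2 at 1.09 (on 3 and 2), Cpa3 detected on 2 arrays in all and Mcpt8 on none, and red cell genes had a median of −0.47. B and plasma cell genes had a median of −0.09 and T cell genes of −0.42. Without Sting gt/gt replicate 4 the medians of these 7 lists, in the order given, were 0.08, 0.42, −0.26, 0.14, −0.69, −0.17, and −0.59.

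Interferon-induced genes, which lupus raises and STING signaling can switch on, did not pass the test in that comparison. The means of all 8 were lower in double-deficient than in Sting gt/gt mice (median −0.56, and −0.65 without Sting gt/gt replicate 4, none called and none with groups that did not overlap), where 48.1% of all tested genes were lower. Among them were Ifit1 at −0.51, Ifit3 at −0.53, Isg15 at −0.60, and Oas2 at −0.97. Between Fcgr2b-/- and wild-type mice all 8 were higher, with a median of 1.15 and none called. Within genotypes they nevertheless followed the ribonucleases from mouse to mouse. After genotype means were removed, the correlations of the 8 genes were 0.794 to 0.901, on both sides of the 95th percentile of all genes (0.836). This was not particular to them. Adgre1 (0.938) and C1qa (0.906) of the macrophage list and Cd3g (0.811) of the T cell list followed too, whereas Csf1r (0.265) and Cd3e (−0.443) did not.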

How the data were processed

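Total RNA (100 ng per mouse) from 16 kidneys was labelled with Cy3, and each sample was read on its own array with Agilent Feature Extraction 11.0, per the submitters' processing notes. The authors deposited the scanner files, whose values are processed intensities after background subtraction, with no scaling between arrays. A second deposited table holds log2 values of these arrays; how it was made is not given in the sources used here. Each column correlated best with its own array (r at least 0.998). It served as an alternative.

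Control and outlier spots were left out (no spot was saturated), spots of one probe were averaged, and log2 intensity minus the array's 75th percentile was computed (Python 3.11.15, pandas 2.3.3). The 35629 of 56605 probes that 4 or more of the 16 arrays detected were tested with limma 3.58.1 (R 4.3.3) over all 4 genotypes, with Benjamini-Hochberg adjustment, and called at an adjusted p under 0.05 and at least 2-fold. The code was tested on simulated data: of 200 probes changed by 2 on the log2 scale between double-deficient and Sting gt/gt arrays, 55.5% were recovered, and of 200 changed by 3, 87%. False calls numbered 10 and 5. The changed probes were drawn at random, with independent noise of each probe's own SD. The members varied more than most probes, so these rates do not give the power for them. A planned exact permutation test of the members between double-deficient and Sting gt/gt mice is not reported, because the choice of the genes had looked across all 16 arrays. One array per mouse limits the precision.

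Probes were named through RefSeq transcripts (58.3% of probes matched), and promoters come from the RefSeq table of build GRCm38.p6. The members and the 17 gene lists were chosen with earlier results of these data known. The text names the members, the defining genes of each list (or its first 4), list genes that were called, and the 10 genes of highest likeness by each of the measures given. The alternatives were other background corrections, scalings, filters, tests, blocks, and arrays left out. Splitting the arrays by Xist and Ddx3y, and leaving Sting gt/gt replicate 4 out of lists and likeness, were added after the data had been seen.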

Additional observations from a re-analysis of the deposited data

Results flagged for a closer look

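Among the 16 combinations of ribonuclease gene and genotype, 1 held a mouse far from the others of its group. For Ear10 in the double-deficient mice, the lowest mouse (replicate 4, at −3.09, against −2.40 to −2.29 in the other 3) was separated by a gap of 0.862 of the group's range, more than the critical value of Dixon's test for 4 samples. Chance gives about 1 such case in 20 groups. The same mouse was the lowest of its group for the other 3 genes, and without it the double-deficient minus Sting gt/gt differences were 2.90 for Ear1, 2.50 for Ear2, 2.35 for Ear10, and 2.73 for Rnase2a.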

How the results depend on the processing

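In the double-deficient against Sting gt/gt comparison the 4 ribonucleases stayed higher under each of the 26 or 27 planned settings that could be run for them, from 1.01 to 3.24 for Ear1, 1.64 to 2.79 for Ear2, 0.87 to 2.56 for Ear10, and 1.16 to 3.03 for Rnase2a. The groups did not overlap for 4 genes, and where detection on all 16 arrays was required for 1 (Ear2), since only that probe remained. The lowest double-deficient mouse exceeded the highest Sting gt/gt mouse by 0.41 to 0.85, and with normexp by 0.17 (Ear10) to 0.46 (Ear2). In the double-deficient against Fcgr2b-/- comparison all 4 stayed lower under the same settings (−2.52 to −1.22).

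Counts over all probes were less stable. For Fcgr2b-/- against wild-type, where 16 were called, fitting the compared groups alone, a random block for the leading number of each mouse's label, detection on all 16 arrays, and the Mann-Whitney test after adjustment each left 0, the authors' table left 7, and Mann-Whitney unadjusted took in 144. Leaving out 1 mouse gave 0 to 39: 39 without Fcgr2b-/- replicate 2, 3 without its replicate 1, 0 without its replicate 4 or wild-type replicate 2, 3, or 4, 5 without Sting gt/gt replicate 2 or double-deficient replicate 1, 2, or 3, 6 without double-deficient replicate 4, and 8 without Sting gt/gt replicate 4. The cause was not tested. The other comparisons called 0 probes with limma, where 1092 (double-deficient against Sting gt/gt), 625 (double-deficient against Fcgr2b-/-), 1329 (Sting gt/gt against wild-type), and 149 (double-deficient against wild-type) had an unadjusted p under 0.05. Fitting the compared groups alone gave 2 for double-deficient against Sting gt/gt and 3 for double-deficient against wild-type, and the latter had 1 with normexp and 1 with detection on all 16 arrays. Leaving out 1 mouse gave 0 to 1 in both. Mann-Whitney unadjusted took in 169 for double-deficient against Sting gt/gt, 38 for double-deficient against Fcgr2b-/-, 117 for Sting gt/gt against wild-type, and 58 for double-deficient against wild-type.

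The sign of the Sting gt/gt minus wild-type difference turned in 22 combinations of gene and setting, with adjusted p of at least 0.887. For Ear1, Ear2, Ear10, and Rnase2a in this order it was −0.101, −0.018, −0.090, and −0.074 with median scaling and −0.031, −0.007, −0.157, and −0.133 in the authors' table. Quantile normalization gave −0.011, −0.155, and −0.130 for Ear2, Ear10, and Rnase2a, and the random block −0.099 for Ear1 and −0.007 for Rnase2a. With 1 mouse left out it ran from −0.44 to 0.66, −0.24 to 0.73, −0.25 to 0.66, and −0.34 to 0.67. Same-numbered mice did not deviate together (correlations of −0.603 to 0.689, above 0.1 in 11 of 24 pairs), so the replicate numbers share only a number. With the replicate block, Fcgr2b-/- against wild-type had 15 calls and the double-deficient minus Sting gt/gt difference of Ear1 stayed 2.75. No list median moved by more than the spread between mice when genes were taken by the median of their probes or Sting gt/gt replicate 4 was left out, but the eosinophil list (0.07 to −0.06) and the eosinophil signals (−0.05 to 0.12) changed sign without that mouse. A dim probe limits Ear1, Ear10, and Rnase2a, which were measured above background on 2 of 4 arrays in both low groups.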
